A study of Homo sapiens with 4 samples.

Results

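The nuclear genes of the mitochondrial respiratory chain were examined in peak lists from chromatin immunoprecipitation and sequencing (ChIP-seq) of ATOH8 and TCF3 in DU145 cells, a long-established line from a human prostate carcinoma. Members were taken by symbol from the RefSeq protein-coding genes of chromosomes 1 to 22 and X: all symbols starting with NDUFA, NDUFB, NDUFC, NDUFS, NDUFV, UQCR, COX4 to COX8, ATP5F1, ATP5M or ATP5P, together with SDHA, SDHB, SDHC, SDHD and CYC1. This gave 96 of 19974 genes. The study held 4 libraries, each the only one of its group: cells with a Flag immunoprecipitation of ATOH8 and its input, and cells with a Myc immunoprecipitation of TCF3 and its input, all fixed with 1% formaldehyde for 10 min. The labels do not state how the tagged proteins were expressed or from which promoter, and no cells without a tag were analysed here. The input libraries were not analysed here. On these chromosomes the lists held 4951 ATOH8 peaks and 11330 TCF3 peaks.

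The respiratory chain sits in the inner mitochondrial membrane. Complexes I and II take electrons from NADH and succinate and pass them to ubiquinone, complex III passes them on to cytochrome c, and complex IV gives them to oxygen. The proton gradient made on the way drives the ATP synthase, here called complex V. A few subunits are encoded by mitochondrial DNA. The others come from nuclear genes on many chromosomes, whose promoters are known to be bound by nuclear respiratory factor 1 (NRF1), ETS-family factors such as GABPA, and YY1. ATOH8 and TCF3 are basic helix-loop-helix (bHLH) factors, a class that binds E-boxes, short DNA words of the form CANNTG.

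A gene was counted as having a peak when the midpoint of a listed peak lay within 5 kb of either end of the gene. ATOH8 peaks lay at 22 of the 96 respiratory chain genes (22.9%, Wilson 95% interval 15.6 to 32.3%), against 22.7% of all protein-coding genes. Over the whole list the ATOH8 share was thus that of genes at large. TCF3 peaks lay at 18 of 96 (18.8%, 12.2 to 27.7%), against 28.5% of all protein-coding genes, a lower share. Peaks of both factors were listed at 7 of 96 members (7.29%), against 9.73% of all protein-coding genes. At 5 of 96 members (5.21%) an ATOH8 and a TCF3 peak overlapped by at least 1 bp, against 7.67% of all protein-coding genes. With the higher-ranked 50% of each list, peaks of both factors lay at 5 members (5.21%, against 3.4% of all genes). Overlapping peaks lay at 3 (3.12%, against 2.75%). The member shares were thus not lower there, and these counts are too small to order the shares. In that part of the lists, ATOH8 peaks lay at 18.8% of members, against 12.3% of all genes, and TCF3 peaks at 12.5%, against 16.7%. A peak of either factor was listed at 33 of the 96 members, against 8288 of all 19974 protein-coding genes. Neither factor was listed at 63 of the 96 members, against 11686 of all 19974 protein-coding genes. The intervals cover the counting of genes only. With 1 library per immunoprecipitation and no replicates, no difference was tested.

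**Figure D1:**
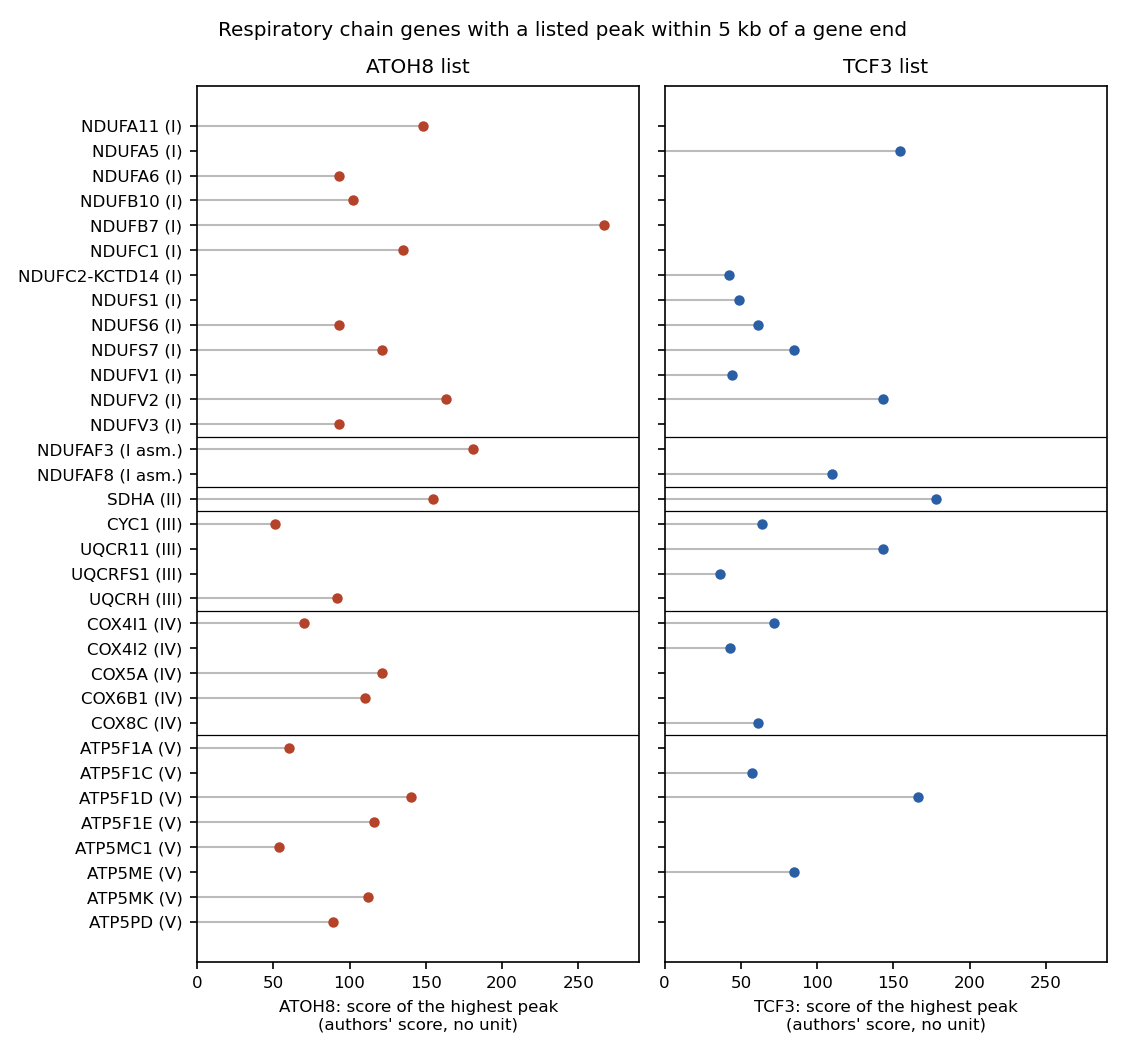
Score of the highest peak of each factor (horizontal axes, authors' score, no unit) at the 33 respiratory chain genes with a listed peak, ATOH8 on the left and TCF3 on the right, with the complex in brackets (asm., assembly factor). Points are single libraries, a row without a point has no listed peak of that factor, and scores are not comparable between the lists. NDUFB7 stood highest for ATOH8 at 267 and SDHA for TCF3 at 178.

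Promoter sequences are shown for 6 members whose promoter window was overlapped by a peak, to set the peaks beside the DNA words these factors bind. The window runs from 250 bases before to 50 bases after the annotated gene start, as given by RefSeq (GRCh38.p14), and was matched for 77 of the 96 members. Both factors overlapped it at NDUFS6 (chr5:1801157-1801456, plus strand) and COX4I1 (chr16:85799445-85799744, plus strand). The 4 others were, among members whose window was overlapped by 1 factor, those with the smallest share of listed peaks scoring higher (2.08 to 23.5%; SDHA followed at 23.9%): ATOH8 at NDUFB7 (chr19:14572017-14572316, minus strand), COX5A (chr15:74938024-74938323, minus strand) and NDUFS7 (chr19:1383657-1383956, plus strand), and TCF3 at NDUFAF8 (chr17:81239061-81239360, plus strand). Sequences run 5′ to 3′ on the gene's strand, and capitals mark every match to the E-box word CANNTG.
NDUFS6: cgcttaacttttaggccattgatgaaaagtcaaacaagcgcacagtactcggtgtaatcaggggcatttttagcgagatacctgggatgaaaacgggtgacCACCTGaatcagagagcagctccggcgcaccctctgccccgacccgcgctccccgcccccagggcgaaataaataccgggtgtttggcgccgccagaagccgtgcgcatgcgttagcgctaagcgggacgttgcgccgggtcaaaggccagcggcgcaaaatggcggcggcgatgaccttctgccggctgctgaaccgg
COX4I1: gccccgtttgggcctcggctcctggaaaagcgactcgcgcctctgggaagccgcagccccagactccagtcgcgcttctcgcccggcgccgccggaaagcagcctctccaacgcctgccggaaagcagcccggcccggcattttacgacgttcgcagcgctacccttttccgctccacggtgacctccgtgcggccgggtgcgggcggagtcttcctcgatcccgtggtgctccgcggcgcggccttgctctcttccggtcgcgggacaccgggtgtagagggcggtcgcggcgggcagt
NDUFB7: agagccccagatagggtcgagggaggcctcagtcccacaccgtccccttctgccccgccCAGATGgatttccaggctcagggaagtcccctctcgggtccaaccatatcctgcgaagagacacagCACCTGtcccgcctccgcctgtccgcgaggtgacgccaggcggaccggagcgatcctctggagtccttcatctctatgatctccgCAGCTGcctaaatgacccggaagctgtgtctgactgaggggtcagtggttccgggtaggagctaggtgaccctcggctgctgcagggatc
COX5A: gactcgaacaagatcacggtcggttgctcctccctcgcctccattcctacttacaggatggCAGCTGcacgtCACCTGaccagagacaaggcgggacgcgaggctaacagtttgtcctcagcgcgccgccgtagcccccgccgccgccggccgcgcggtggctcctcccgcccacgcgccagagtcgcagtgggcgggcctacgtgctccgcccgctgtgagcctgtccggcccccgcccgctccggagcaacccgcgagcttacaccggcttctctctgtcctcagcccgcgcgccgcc
NDUFS7: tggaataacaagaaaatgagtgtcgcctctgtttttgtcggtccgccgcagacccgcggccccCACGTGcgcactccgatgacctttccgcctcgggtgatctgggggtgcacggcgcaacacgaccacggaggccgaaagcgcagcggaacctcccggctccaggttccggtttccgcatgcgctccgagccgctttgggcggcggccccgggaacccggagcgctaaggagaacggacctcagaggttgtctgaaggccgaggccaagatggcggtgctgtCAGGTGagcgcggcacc
NDUFAF8: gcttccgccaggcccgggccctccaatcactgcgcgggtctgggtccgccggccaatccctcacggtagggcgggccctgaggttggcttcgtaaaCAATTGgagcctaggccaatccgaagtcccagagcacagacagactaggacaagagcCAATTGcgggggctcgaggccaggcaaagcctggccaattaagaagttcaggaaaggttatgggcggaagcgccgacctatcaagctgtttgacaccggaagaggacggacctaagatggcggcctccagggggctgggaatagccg

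The marked words can be placed against the peaks by counting from the gene start, with the first base of the gene as 1 and the base before it as -1. In NDUFB7 the words were CAGATG (starting at -191), a CACCTG (at -125) and a CAGCTG (at -40), and the ATOH8 peak, which covered the last 99 of the 300 bases, held the one at -40. COX5A held CAGCTG (at -189) and, beside it, CACCTG (at -178), both inside its ATOH8 peak. NDUFS7 held CACGTG (at -187) and, within the gene, CAGGTG (at 34), both inside its ATOH8 peak. The NDUFS6 window held one word, CACCTG (at -149), inside the ATOH8 peak and outside the TCF3 peak, which covered 56 of the 300 bases. The 2 words of NDUFAF8 were both CAATTG (at -154 and at -97) and lay inside its TCF3 peak. The COX4I1 window, covered entirely by a TCF3 peak and for 21 bases by an ATOH8 peak, held no match.

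Over all matched promoters, words of the form CANNTG occurred in 49 of 77 member promoters (63.6%) and in 64.6% of all 15812 protein-coding promoters of the same length. Of the member promoters, 12 were overlapped by an ATOH8 peak (15.6%, against 14.6% of all promoters), and 9 of these 12 held the word (75.0%), compared with 40 of the 65 others (61.5%). Over all promoters, 63.4% of those overlapped by ATOH8 and 64.8% of the rest held it, which is not the members' direction. A TCF3 peak overlapped 8 member promoters (10.4%, against 13.8% of all promoters), of which 5 held it (62.5%), compared with 44 of the 69 others (63.8%). Over all promoters, 55.0% of those overlapped by TCF3 and 66.2% of the rest held it. E-box matches were thus found at a similar rate in these promoters and in promoters at large. Each word was read on both strands, so that CACCTG counts as CAGGTG. The single form CAGGTG was found in 14 member promoters (18.2%, against 19.9% of all), and the form CAGCTG in 17 (22.1%, against 17.5%). The form CAGATG was found in 10 (13.0%, against 11.7%) and CATATG in 1 (1.30%, against 1.87%). These forms are contained in the general word and overlap it. Of the 12 member promoters overlapped by ATOH8, 5 held CAGGTG, compared with 9 of the 65 others. Words were counted in the whole window and can lie outside the peak, as the CACCTG of NDUFB7 did. Among all promoters the word was found in 26.1% of those overlapped by ATOH8 and 18.8% of the rest.

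Words of the factors known for this gene class were more frequent in member promoters than in all promoters. The NRF1 word GCGCANGCG was found in 23 of 77 member promoters (29.9%, against 11.0% of all promoters), the ETS word CCGGAAG in 22 (28.6%, against 14.1%) and the YY1 word ATGGCGG in 21 (27.3%, against 7.58%), each read on both strands. None of these words contains an E-box match, and the differences were not tested. NDUFS6 and NDUFS7 held both the NRF1 and the YY1 word, and NDUFAF8 held the ETS and the YY1 word. NDUFB7 and COX4I1 held the ETS word, and COX5A held none of the 3 words. Among the 12 member promoters with an ATOH8 peak, 2 held the NRF1 word (16.7%), compared with 21 of the 65 others (32.3%). Over all promoters the order was the other way, with 15.5% of those overlapped by ATOH8 and 10.3% of the rest. Among the 8 with a TCF3 peak, 5 held it (62.5%), compared with 18 of the 69 others (26.1%). Over all promoters the shares were 12.2% of those overlapped by TCF3 and 10.9% of the rest. The ETS word was found in 33.3% of member promoters with an ATOH8 peak and 27.7% of the others (all promoters, 18.7% and 13.3%). For the YY1 word these shares were 33.3% and 26.2% (all promoters, 9.8% and 7.2%). With TCF3 the ETS shares were 37.5% and 27.5% (all promoters, 11.4% and 14.6%), and the YY1 shares 25.0% and 27.5% (7.06% and 7.66%). Median GC content was 61.0% in member promoters, 62.7% in all promoters and 70.3% in all promoters overlapped by an ATOH8 peak.

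Counted by complex, the shares stood within wide intervals of each other. The readthrough genes NDUFC2-KCTD14 and ATP5MF-PTCD1 were counted with the subunit genes of complexes I and V. ATOH8 peaks lay at 9 of 38 complex I subunit genes (23.7%), 1 of 8 complex I assembly factor genes, 1 of 4 complex II genes, 2 of 10 complex III genes, 3 of 17 complex IV genes (17.6%) and 6 of 19 complex V genes (31.6%, Wilson 95% interval 15.4 to 54.0%). TCF3 peaks lay at 7 of 38 (18.4%), 1 of 8, 1 of 4, 3 of 10, 3 of 17 (17.6%) and 3 of 19 genes (15.8%, 5.52 to 37.6%) of the same groups. Every one of these ATOH8 intervals contained the share of all protein-coding genes, and so did every TCF3 interval.

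**Figure D2:**
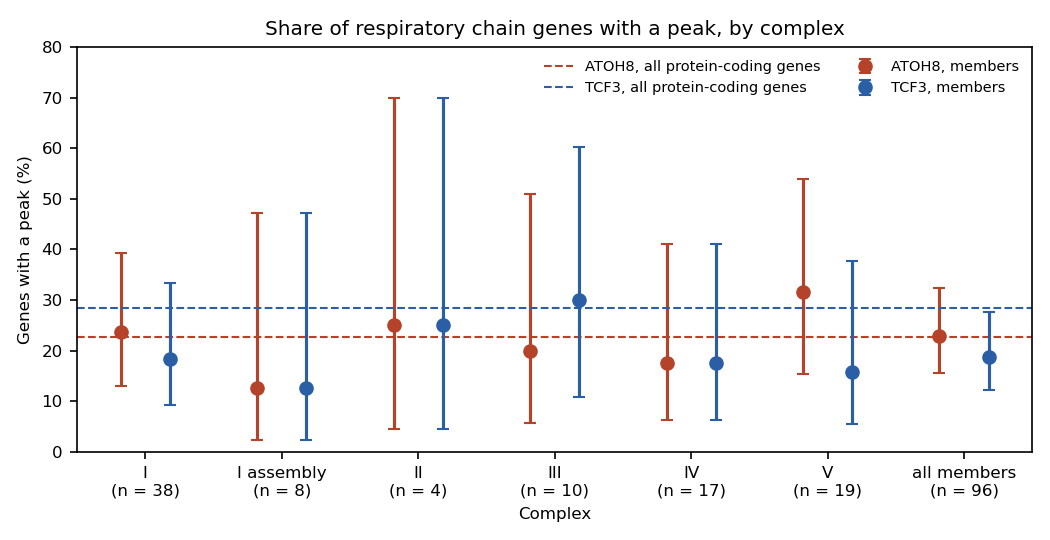
Share of genes with a peak within 5 kb of a gene end (vertical axis, %) for each complex (horizontal axis, with its number of genes), ATOH8 left of TCF3. Points are shares, bars are Wilson 95% intervals for the counting of genes, and dashed lines are the shares of all protein-coding genes (22.7% for ATOH8 and 28.5% for TCF3). The intervals of single complexes contain these lines, while the TCF3 interval of all 96 members ends at 27.7%.

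The highest ATOH8 score of all members was found in complex I, at NDUFB7 (chromosome 19, 14566078 to 14572066), an accessory subunit of the membrane arm. It had a peak from 14571499 to 14572115 and a score of 267, above that of 97.9% of the ATOH8 peaks. This peak covered the gene start, and no TCF3 peak was listed within 5 kb. NDUFA11 (5891229 to 5903790 on the same chromosome), another accessory subunit of the membrane arm, had an ATOH8 score of 148, but its peak (5904804 to 5905565) lay 1394 bp before the gene start and 312 bp from an end of the neighbouring gene VMAC. The remaining accessory subunits had lower ATOH8 scores: 135 at NDUFC1, 102 and 62 at NDUFB10, and 93 at NDUFA6, NDUFS6 and NDUFV3. At NDUFB10 the peak with score 62 covered the gene start, while the one with score 102 lay beyond the far end and 539 bp from an end of RPS2, a cytosolic ribosomal protein gene. At NDUFV3, whose product belongs to the NADH-oxidising module, the peak midpoint was 2 bp from the gene start.

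The core subunits of complex I carry its flavin and iron-sulfur clusters. Among the 7 nuclear core genes, ATOH8 peaks lay at 2 (28.6%, Wilson 95% interval 8.22 to 64.1%, against 22.7% of all protein-coding genes). TCF3 peaks lay at 4 (57.1%, 25.0 to 84.2%, against 28.5%). Of the other 31 genes counted for complex I, the readthrough gene NDUFC2-KCTD14 included, 7 had an ATOH8 peak (22.6%) and 3 a TCF3 peak (9.68%, 3.35 to 24.9%). NDUFS7, which carries the last cluster before ubiquinone, had an ATOH8 peak with score 121 across its start, from 1383563 to 1384219 on chromosome 19. Its TCF3 peaks, with scores 85 and 44, lay near its far end, at 9280 and 11465 bp from the start. NDUFV1, which binds NADH and the flavin, had a TCF3 peak with score 44 whose midpoint was 254 bp into the gene. NDUFS1, the largest core subunit, had a TCF3 peak with score 49 near its far end. At NDUFV2, an iron-sulfur subunit, peaks of both factors lay beyond the far end and closest to the gene ANKRD12: ATOH8 with score 163, TCF3 with score 143. NDUFS3 and NDUFS8 had no listed peak.

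Other TCF3 peaks counted for complex I lay at accessory subunits and at a readthrough gene. NDUFA5 (chromosome 7, 123536997 to 123601651), a subunit of the peripheral arm, had one from 123532594 to 123533146 with score 154, 4127 bp beyond its far end and 1725 bp from IQUB. NDUFS6, a zinc-binding subunit, had TCF3 scores of 61 and 44, and the readthrough gene NDUFC2-KCTD14 had 42. The latter peak lay near the far end, 62845 bp from the start, and the TCF3 midpoint nearest to NDUFC2 itself was 51280 bp away. No listed peak lay at 25 complex I genes, among them NDUFA1, NDUFA2, NDUFA3, NDUFA7, NDUFA8, NDUFA9, NDUFA10, NDUFA12, NDUFA13, NDUFAB1, NDUFB1, NDUFB2, NDUFB3, NDUFB4, NDUFB5, NDUFB6, NDUFB8, NDUFB9, NDUFB11, NDUFC2, NDUFS3, NDUFS4, NDUFS5 and NDUFS8. Of the assembly factors, which build complex I and are not part of it, NDUFAF3 (chromosome 3, 49020452 to 49023495) had ATOH8 peaks with scores 181 and 60. The higher one (49017640 to 49018802) lay 2231 bp before the gene start and the lower one 409 bp into the gene. NDUFAF8 had a TCF3 peak with score 110 across its start, 85 bp from an end of TEPSIN. NDUFAF1, NDUFAF2, NDUFAF4, NDUFAF5, NDUFAF6 and NDUFAF7 had none.

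Complex II is also an enzyme of the citric acid cycle. SDHA (chromosome 5, 218320 to 268746), its flavoprotein, had peaks of both factors: ATOH8 with score 155, and TCF3 with scores 178 and 93. The ATOH8 peak (270764 to 271325) and the higher TCF3 peak (271648 to 272262) lay beyond the far end of SDHA without sharing a base, and both were nearest to PDCD6. The TCF3 peak with score 93 lay inside SDHA, with its midpoint 382 bp from the start. SDHB, SDHC and SDHD, which encode the iron-sulfur subunit and the membrane anchors, had no listed peak.

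In complex III, CYC1, which encodes cytochrome c1, had overlapping peaks of both factors. Its ATOH8 peak (chromosome 8, 144094629 to 144096141) had a score of 51, equal to the lowest in that list, and its TCF3 peak (144095132 to 144095659) had a score of 64. The midpoints were 10.5 bp apart. UQCRH, the hinge subunit, had an ATOH8 peak with score 92, 595 bp before its start and 513 bp from LRRC41. TCF3 peaks had a score of 143 at UQCR11, a small subunit, and of 36 at UQCRFS1, the Rieske iron-sulfur protein. The lowest score in the TCF3 list was 35. The UQCR11 peak (chromosome 19, 1592018 to 1592903) lay 4708 bp beyond the far end of the gene and 404 bp from MBD3, while the UQCRFS1 peak lay inside the gene, 228 bp from its start. UQCR10, UQCRB, UQCRC1, UQCRC2, UQCRHL and UQCRQ had none.

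Complex IV holds several subunits with tissue-specific isoforms. COX4I1, the common form of subunit 4, had overlapping peaks of both factors at its start, with scores of 70 for ATOH8 and 72 for TCF3. COX4I2, the form known from lung and from hypoxic cells, had a TCF3 peak with score 43 across one end of the gene and no ATOH8 peak. COX5A had an ATOH8 peak with score 121 across its start. COX6B1 had one with score 110, 4870 bp before the start and closer to ETV2, and COX6B2 had none. COX8C, a testis form, had a TCF3 peak with score 61 across its start, and COX8A, the common form, had none. No listed peak lay at COX5B, COX6A1, COX6A2, COX6C, COX7A1, COX7A2, COX7A2L, COX7B, COX7B2 or COX7C. COXFA4 and COXFA4L2, formerly named as NDUFA subunits and outside the rule, had none either.

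At complex V genes of known strand, which leaves out ATP5F1D, the ATOH8 peaks were closer to the start than to the far end. The same held for 86.4% of ATOH8 pairs over all members and 82.3% over all protein-coding genes. ATP5F1E, the epsilon subunit of the central stalk, had one with score 116 whose midpoint was 12 bp from the start. ATP5MK, a small membrane subunit, had 112, and ATP5PD, of the peripheral stalk, had 89. Lower ATOH8 scores were found at ATP5F1A, the alpha subunit (60), and at ATP5MC1 (54), one of the genes for the proton-carrying c ring. The ATP5F1A peak lay 370 bp before its start and was nearest to HAUS1. ATP5MC2 and ATP5MC3, which encode the same mature c subunit as ATP5MC1, had no listed peak.

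TCF3 peaks in complex V were fewer. ATP5F1C, the gamma subunit of the same stalk, had one with score 57 and ATP5ME, a membrane subunit, one with score 85, both across the gene start. The ATP5ME peak was nearest to MYL5, at 75 bp. ATP5F1D (chromosome 19, 1241751 to 1244825), the delta subunit, had ATOH8 peaks with scores 140 and 89 and TCF3 peaks with scores 166, 136 and 37. The lowest-scoring peak of each factor had its midpoint inside the gene, and these peaks overlapped (1241747 to 1242767 for ATOH8 and 1241784 to 1242504 for TCF3). The other overlapping pair, 140 for ATOH8 (1247592 to 1251193) and 166 for TCF3 (1248114 to 1251521), was nearest to MIDN, and the TCF3 peak with score 136 was nearest to CBARP. No listed peak lay at ATP5F1B, ATP5MF, ATP5MF-PTCD1, ATP5MG, ATP5MGL, ATP5MJ, ATP5PB, ATP5PF or ATP5PO.

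Overlapping peaks of both factors were thus listed at NDUFS6, NDUFV2, CYC1, COX4I1 and ATP5F1D. At NDUFS6 (chromosome 5, 1801407 to 1816048) the TCF3 peak (1801401 to 1801827) lay entirely within the ATOH8 peak (1801092 to 1801861), with scores of 93 for ATOH8 and 61 for TCF3. Both had MRPL36, a mitochondrial ribosomal protein gene, as the nearest gene end, at 42 and 180 bp. At COX4I1 (chromosome 16, 85799695 to 85807068) the ATOH8 peak (85799724 to 85800091) lay entirely within the TCF3 peak (85799217 to 85800171). At NDUFV2 (chromosome 18, 9102699 to 9134341) the ATOH8 peak (9136030 to 9137343) and the TCF3 peak (9136907 to 9137739) shared 436 bp. At the last 2 members with both factors, SDHA and NDUFS7, the peaks shared no base.

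The members lay in more crowded surroundings than genes at large, and many peaks counted for them were closer to another gene. Another protein-coding gene end lay within 5 kb of 73 of the 96 members (76.0%), against 9995 of all 19974 protein-coding genes, and the median gene length was 10.2 kb, against 24.2 kb. Of 25 pairs of a member and an ATOH8 peak, 16 had the member as nearest gene (64.0%, against 74.8% of such pairs over all protein-coding genes) and 9 had another gene. Of 23 such pairs for TCF3, 13 had the member (56.5%, against 78.8%) and 10 another gene. The part of crowding in these shares was not tested. For ATOH8, the highest peak was nearest to the member itself at 13 of 22 members (59.1%, against 76.3% of all protein-coding genes with a peak). For TCF3 this held at 10 of 18 members (55.6%, against 79.9%). Of the 5 members with the highest ATOH8 scores (NDUFB7, NDUFAF3, NDUFV2, SDHA and NDUFA11), 3 had this score from a peak nearest to another gene. The highest among them, NDUFB7 and NDUFAF3, had it from a peak nearest to themselves. Of the 5 with the highest TCF3 scores (SDHA, ATP5F1D, NDUFA5, NDUFV2 and UQCR11), 5 had it from a peak nearest to another gene. Among members with another gene end within 5 kb, ATOH8 peaks lay at 26.0% and TCF3 peaks at 19.2%. The shares among all protein-coding genes with such neighbours were 28.0% and 29.5%.

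Scores were compared within each list as the share of its peaks that scored lower. The median over the highest ATOH8 peak of each member was 70.3%, against 53.0% for all protein-coding genes with an ATOH8 peak. When only peaks nearest to the member itself were taken, which left 15 members, the median was 57.4%, against 52.4% for all protein-coding genes. For TCF3 the medians were 57.1%, against 55.8% for all protein-coding genes, and with nearest peaks only (12 members) 36.4%, against 55.8%. The higher ATOH8 standing of the members was thus smaller once peaks nearest to other genes were left out. For the TCF3 peaks nearest to members, the median stood in the lower part of the list. Single values ran from 0.0265% at UQCRFS1 to 76.0% at SDHA.

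Strand was known for the 77 members with a promoter entry, which allowed peaks to be placed relative to the gene start. Of the pairs with strand, 19 of 22 ATOH8 pairs were closer to the start than to the far end (86.4%, against 82.3% over all protein-coding genes). For TCF3, 10 of 18 pairs were (55.6%, against 75.8%). An ATOH8 midpoint lay within 1 kb of the start at 16 of 77 members (20.8%, Wilson 95% interval 13.2 to 31.1%), against 17.3% of all protein-coding genes with strand. TCF3 midpoints did so at 9 of 77 (11.7%, 6.27 to 20.7%), against 18.6%. An ATOH8 peak covered the start itself at 8 of 77 members (10.4%, against 11.0%), namely ATP5F1E, ATP5PD, COX5A, NDUFB10, NDUFB7, NDUFS6, NDUFS7 and NDUFV3. A TCF3 peak did so at 6 of 77 (7.79%, against 9.82%), namely ATP5F1C, ATP5ME, COX4I1, COX8C, NDUFAF8 and NDUFS6. NDUFS6 was the only member on both lists. The shares of members with an ATOH8 peak at the start were thus close to those of genes at large.

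**Figure D3:**
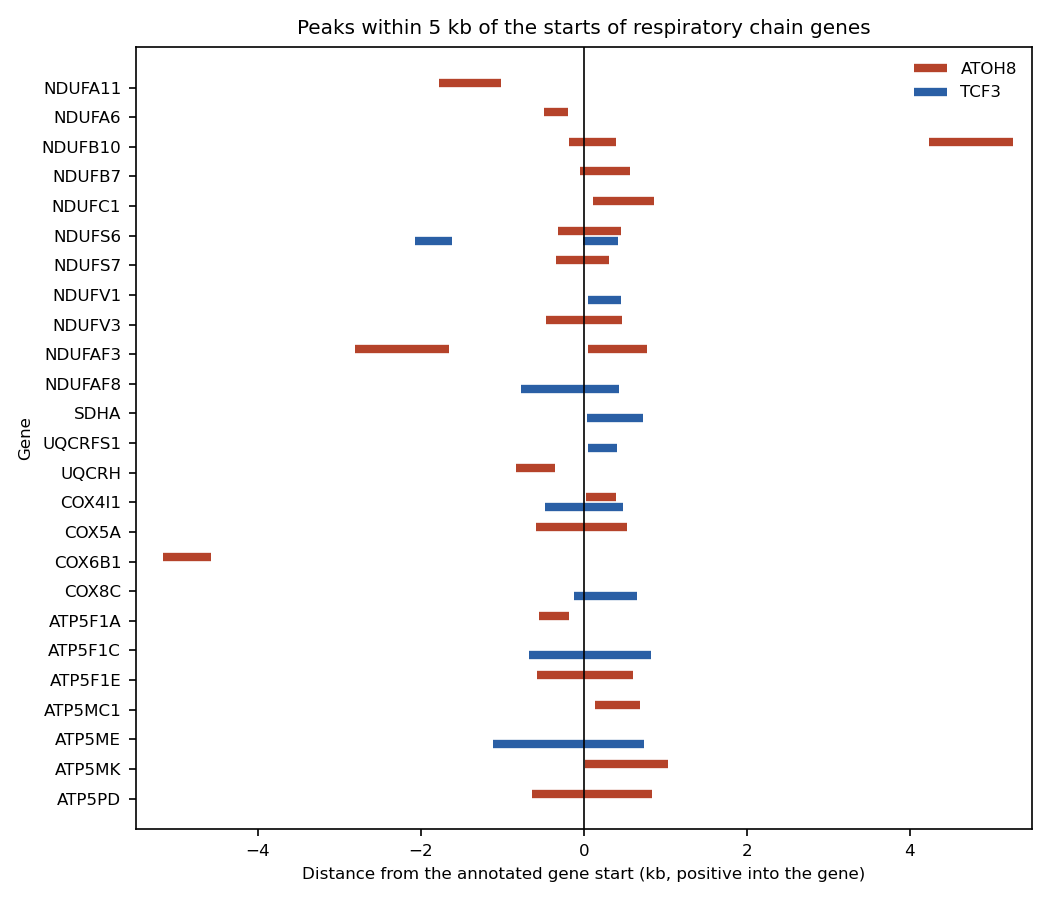
Peaks (bars, drawn from peak start to peak end, ATOH8 above TCF3 for each gene) with a midpoint within 5 kb of the annotated start of a respiratory chain gene of known strand. The horizontal axis is the distance from the gene start in kb, positive into the gene, with genes ordered by complex. Most bars lie within 1 kb of the start, and NDUFA11, NDUFAF3, NDUFB10, NDUFS6 and COX6B1 also or only have bars farther away.

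The distance allowed between peak and gene end changed the counts and also their standing against genes at large. For both factors the gap in percentage points was widest at 50 kb. Within 0.5 kb, ATOH8 peaks lay at 15 members (15.6%, against 14.0% of all protein-coding genes) and TCF3 peaks at 13 (13.5%, against 14.5%). Within 50 kb, ATOH8 peaks lay at 50 members (52.1%, against 43.2%) and TCF3 peaks at 33 (34.4%, against 52.9%). The ATOH8 share stayed near or above the share of all genes, and the TCF3 share stayed below it at every distance from 0.5 to 50 kb. At the 5 kb limit, the ATOH8 members just inside were NDUFV2 (2345 bp) and COX6B1 (4870 bp), and SDHB (6899 bp) lay outside. For TCF3, UQCR11 (4708 bp) was just inside, and NDUFS3 (5560 bp) and NDUFS8 (7179 bp) were just outside. The 74 members without a listed ATOH8 peak had their nearest ATOH8 midpoint at a median of 135188 bp from a gene end. For the 78 members without a listed TCF3 peak, the nearest TCF3 midpoint lay at a median of 105865 bp.

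**Figure D4:**
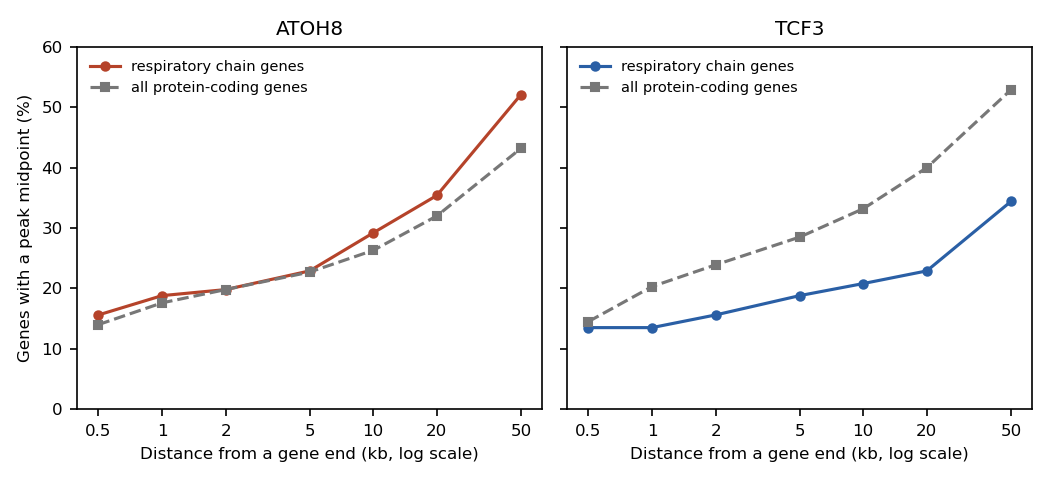
Share of genes with a peak midpoint within a given distance of a gene end (vertical axis, %; horizontal axis, distance in kb on a log scale) for ATOH8 (left) and TCF3 (right). Solid lines are the 96 respiratory chain genes and dashed grey lines all 19974 protein-coding genes. For ATOH8 the lines run close together up to 5 kb, and for TCF3 the members run below, reaching 34.4% against 52.9% at 50 kb.

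On chromosome 19, which holds 12 members, ATOH8 peaks lay at 5 (ATP5F1D, COX6B1, NDUFA11, NDUFB7 and NDUFS7) and TCF3 peaks at 4 (ATP5F1D, NDUFS7, UQCR11 and UQCRFS1). The shares of all 1451 protein-coding genes of this chromosome were 21.0% for ATOH8 and 17.3% for TCF3. The counts are small, with Wilson 95% intervals of 19.3 to 68.0% for ATOH8 and 13.8 to 60.9% for TCF3.

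Other genes of the pathway were counted in the same way. Of 46 assembly factors outside the rule, 14 had an ATOH8 peak (30.4%) and 9 a TCF3 peak (19.6%), with the copper chaperone gene SCO1 highest for both factors (171 for ATOH8 and 99 for TCF3). Of 19 citric acid cycle and pyruvate enzyme genes, 7 had an ATOH8 peak (36.8%), led by OGDH (333), and 5 a TCF3 peak (26.3%), led by FH (154). Of 21 regulators of mitochondrial gene expression, 9 had an ATOH8 peak (42.9%), led by TFB2M (121), and 7 a TCF3 peak (33.3%), led by GABPB1 (215), a partner of GABPA. Of 15 genes for electron carriers and ubiquinone synthesis, 5 had an ATOH8 peak (33.3%) and 1, COQ8B, a TCF3 peak (6.67%). The shares of all protein-coding genes were 22.7% for ATOH8 and 28.5% for TCF3. The ATOH8 shares of the 4 lists were above that of the respiratory chain genes (22.9%), and their intervals overlapped the interval of those genes (15.6 to 32.3%). The intervals of the assembly factors (19.1 to 44.8%), the citric acid cycle genes (19.1 to 59.0%) and the electron carriers (15.2 to 58.3%) contained 22.7%, and that of the regulators (24.5 to 63.5%) did not.

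Gene classes of similar housekeeping kind were set beside the members. Mitochondrial ribosomal protein genes had an ATOH8 peak at 20 of 77 (26.0%) and a TCF3 peak at 15 of 77 (19.5%). Cytosolic ribosomal protein genes had an ATOH8 peak at 25 of 99 (25.3%) and a TCF3 peak at 22 of 99 (22.2%). Proteasome subunit genes had an ATOH8 peak at 18 of 50 (36.0%) and a TCF3 peak at 5 of 50 (10.0%). The ATOH8 share of all protein-coding genes was 22.7%. It lay within the ATOH8 intervals of the mitochondrial (17.5 to 36.7%) and cytosolic (17.7 to 34.6%) ribosomal protein genes. It lay below that of the proteasome genes (24.1 to 49.9%). The TCF3 shares of these classes were below the 28.5% of all protein-coding genes, as was that of the respiratory chain genes. The intervals of the mitochondrial (12.2 to 29.7%) and cytosolic (15.2 to 31.4%) ribosomal protein genes contained 28.5%, and that of the proteasome genes (4.35 to 21.4%) did not. No difference between these classes was tested.

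**Figure D5:**
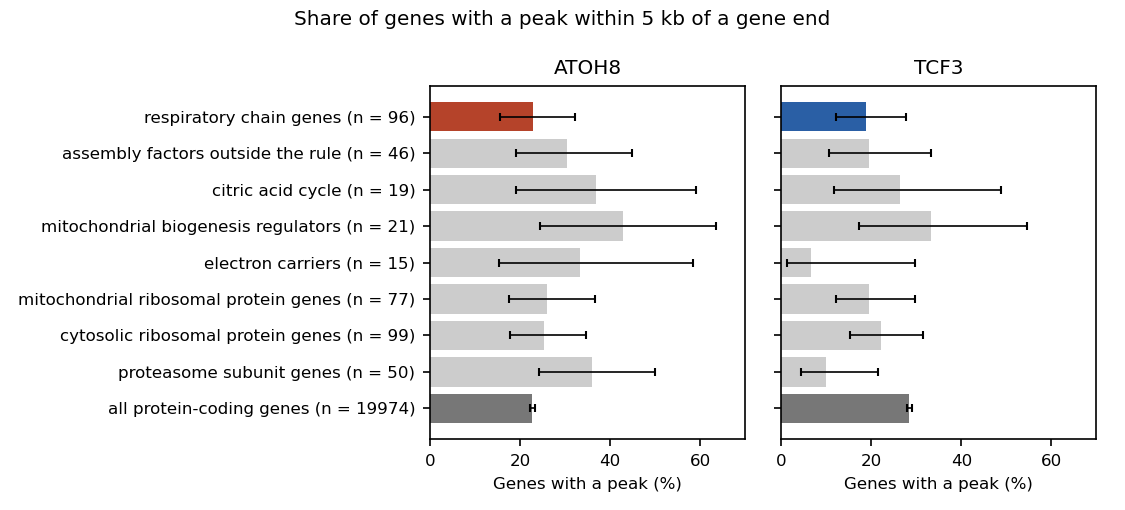
Share of genes with a peak within 5 kb of a gene end (horizontal axis, %) for ATOH8 (left) and TCF3 (right) in the respiratory chain genes (coloured), other gene lists (light grey) and all protein-coding genes (dark grey). Error bars are Wilson 95% intervals for the counting of genes. The respiratory chain bar is at 22.9% for ATOH8 and 18.8% for TCF3.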

How the data were processed

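Peak lists were read as the authors deposited them, 1 list for each immunoprecipitation, each peak having its position and one score. The score is the authors' own, and per the file headers it is named only as a peak score. Its definition, the aligner, the peak caller, the threshold and the use of the inputs were all not given in the sources used here. Positions are on hg38, per the submitters' processing notes. It is unknown whether starts count from 0 or 1, so distances may be off by 1 bp. The lists were held in part: 3 lines of the ATOH8 list and 5 of the TCF3 list had no peak, and across them the largest step in score was 996 to 356 for ATOH8 and 887 to 280 for TCF3. A gene without a listed peak was therefore not taken as unbound. Read depth was unknown.

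Gene ends came from RefSeq GRCh38.p14, and strand and promoters from its promoter table (15812 protein-coding genes, 1 promoter each, the one nearest to the annotated start). Midpoints were assigned to every gene in reach, overlap meant at least 1 bp, and intervals are Wilson 95%. Scores were used only within a list. The assignment was tested on simulated data with planted peaks and returned the planted genes. Members, lists and alternatives were chosen with earlier results of these data known. All members with a listed peak are named, a result for 1 member without one is not reported here, and full positions are given for overlapping pairs and high scores. Sequences were chosen by whether both factors overlapped the promoter window, then by score rank. Python 3.11.15, numpy 2.4.6, pandas 2.3.3, scipy 1.17.1 and matplotlib 3.10.9 were used.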

Additional observations from a re-analysis of the deposited data

How the results depend on the processing

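Counts of members with a peak were recomputed under 12 other settings, giving 42 values, of which 28 stayed within 1.5 times the reported count. The 22 members with an ATOH8 peak numbered 15 to 24 under all settings but the 50 kb window, which gave 50. The 18 members with a TCF3 peak became 33 within 50 kb (52.9% of all protein-coding genes), 9 around gene starts only (77 members with strand; 24.3% of all protein-coding genes with strand) and 9 when the TCF3 list was cut to its highest peaks, as many as in the ATOH8 list (14.7%). The 7 members with both factors became 21 within 50 kb (21.9%, against 27.6% of all protein-coding genes), 2 around gene starts only (2.60%, against 7.56%) and 4 when a peak counted only for its nearest protein-coding gene (4.17%, against 6.90%). The 5 members with overlapping peaks became 8 within 50 kb (8.33%, against 15.8%), 2 around gene starts only (2.60%, against 6.66%), 3 (3.12%) with the higher-ranked 50% of peaks (against 2.75%), equal numbers of peaks (4.42%), the nearest gene only (5.93%) or midpoints within 200 bp (4.22%), and 2 with a reciprocal overlap of 50% (2.08%, against 4.69%). A wider or narrower window, fewer peaks or a stricter overlap changes these counts by construction. With the higher-ranked 50% of peaks, 18 members kept an ATOH8 peak (18.8%, against 12.3% of all protein-coding genes). Peaks of both factors then lay at 5 members (5.21%, against 3.4%) and overlapping peaks at 3 (3.12%, against 2.75%). The member shares were thus not below those of all genes there, but the counts are too small to order them. No paired analysis was possible because each group has 1 library, and no library could be left out. Read depth was unknown, so a missing peak was not read as absent binding.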
